A study of Mus musculus with 6 samples.

Results

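The Ebf genes of the mouse encode the early B-cell factors, a small family of transcription factors that bind DNA as pairs. Its members Ebf1, Ebf2, Ebf3 and Ebf4 were followed in the brains of aged Sgo1-/+ mice and their wild-type (WT) controls. The deposited table has 38087 gene rows, of which 5 carry the symbol of a member. Those 5 rows are the 4 protein-coding genes and 1 processed pseudogene that the table also calls Ebf1. The pseudogene was listed at 0 in all 6 libraries and was left aside. The family was chosen on measured values, since Ebf3 is one of the genes that the study listed as lower in Sgo1-/+ from these same libraries. The Sgo1-/+ against WT values of Ebf3 are therefore given as a description, with no test, and the paralogs were compared beside it.

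The WT group was 3 mice and the other group was 3 Sgo1-/+ mice, all labelled C57BL6, of which the latter carry 1 working copy of the cohesion protector Shugoshin-1 in the whole body. All 6 mice were 24 months old, untreated, and gave 1 library each. RNA came from frozen cerebrum with cortex and hippocampus, from which the olfactory bulb, cerebellum and medulla were to be removed. The male libraries were WT replicate 1 and Sgo1-/+ replicate 2. WT libraries belong to run 258 and Sgo1-/+ libraries to run 259, so that an effect of the run and one of the genotype cannot be told apart. Total estimated counts ranged from 11123917 to 12505561 per library. Sgo1 itself was at 0 to 7 estimated counts in each library, too few to check the genotype at this depth. WT replicate 1 stood apart from the rest: genes of the cerebellum and brain stem were higher and genes of the cerebral cortex lower there than in the other 5 libraries, as given below with values. Each comparison is therefore given with and without it.

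Early B-cell factors were found both as a regulator of B-lymphocyte genes and as a factor of olfactory neurons, which gave them the older name Olf-1 or O/E. Each protein has a DNA-binding domain with an unusual zinc-binding knuckle, followed by domains for pairing with another family member. In the nervous system they act during the differentiation and migration of neurons. Ebf1 is needed for striatal neurons in development and is a marker of the mural cells on brain vessels, and Ebf2 is known from a subset of cerebellar Purkinje cells. Mutations of human EBF3 cause a developmental syndrome with ataxia. The zinc-binding proteins Zfp423 and Zfp521 bind early B-cell factors and change their activity.

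The stretch that encodes the zinc knuckle is shown because it lets the relation of the 4 genes be seen base by base. It is the 42 bases from the zinc-binding histidine codon to the last of the zinc-binding cysteine codons, taken from the GENCODE M21 transcript of each gene with the longest coding region. Capitals mark positions where the 4 genes are not all alike.

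Ebf1: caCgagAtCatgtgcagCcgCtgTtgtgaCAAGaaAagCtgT

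Ebf2: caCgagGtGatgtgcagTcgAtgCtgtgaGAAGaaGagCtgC

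Ebf3: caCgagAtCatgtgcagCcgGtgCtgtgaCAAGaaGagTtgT

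Ebf4: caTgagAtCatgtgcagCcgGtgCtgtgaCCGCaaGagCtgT

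In this stretch Ebf3 differed from Ebf1 at 4 bases, from Ebf4 at 5 and from Ebf2 at 7, and the most distant pair was Ebf2 and Ebf4 with 10 differences. Over the whole coding regions, identity was highest between Ebf1 and Ebf3, at 79.6% of 1776 aligned bases, and lowest between Ebf2 and Ebf4, at 70.9%. The longest run of identical bases between transcripts of any 2 members was 27 bases, between Ebf3 and Ebf4. No read longer than that run can match annotated transcripts of 2 members without a mismatch.

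In mm10 coordinates Ebf1 (ENSMUSG00000057098) lies on the plus strand at chr11:44617317-45008091 and Ebf2 (ENSMUSG00000022053) on the plus strand at chr14:67233292-67430918. Ebf3 (ENSMUSG00000010476) lies on the minus strand at chr7:137193673-137314445, and Ebf4 (ENSMUSG00000053552) on the plus strand at chr2:130295169-130370481. The exons of all annotated transcripts cover 9756 bases for Ebf1, 6928 for Ebf2, 9227 for Ebf3 and 3236 for Ebf4. An antisense gene overlaps exons of Ebf2 (Gm10860, over 424 bases) and of Ebf3 (Gm45278, over 355 bases). The sources do not say whether counting used the strand, so reads of these partners could have been counted for Ebf2 and Ebf3. Gm10860 had at most 1.9 estimated counts in a library, and Gm45278 was not analysed here.

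Ebf3, Ebf2 and Ebf1 were each far higher in WT replicate 1 than in any other library, and Ebf4 was not. Values below are normalized counts, which are estimated counts scaled to the effective size of the library. Across WT replicates 1, 2 and 3, Ebf3 was counted at 513, 44.8 and 11.2. In Sgo1-/+ replicates 1, 2 and 3 it had 17.9, 15.2 and 15.3. The Sgo1-/+ libraries thus lay close together, between the 2 lower WT libraries, and the groups overlapped. Fewer cells of a type and less RNA per cell cannot be told apart in such bulk libraries. WT replicate 1 held 90.2% of the Ebf3 counts summed over the WT group and was 11.4-fold above the next highest library.

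The normalized counts of Ebf2 were 109.8, 15.2 and 7.10 across the WT libraries in the same order. In Sgo1-/+ replicates 1, 2 and 3 it had 14.9, 12.2 and 6.14. Its level was low outside WT replicate 1, where the 5 libraries spanned 6.14 to 15.2. Counting error alone is wide at that depth, since the lowest library had 6.33 estimated counts with an exact Poisson 95% interval of 2.20 to 13.1. Such intervals cover counting error only. WT replicate 1 was 7.20-fold above the next highest library for Ebf2.

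For Ebf1 the WT libraries had 598, 95.2 and 84.2 normalized counts. The Sgo1-/+ libraries had 163, 119.6 and 108.5. Here the Sgo1-/+ libraries all lay above WT replicates 2 and 3 and below WT replicate 1, which was 3.67-fold above the next highest library. Ebf4 was at 77.5, 99.0 and 47.7 normalized counts over the WT libraries, against 89.4, 89.2 and 57.3 over the Sgo1-/+ libraries. For Ebf4, WT replicate 1 lay inside the range of the other libraries.

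**Figure D1:**
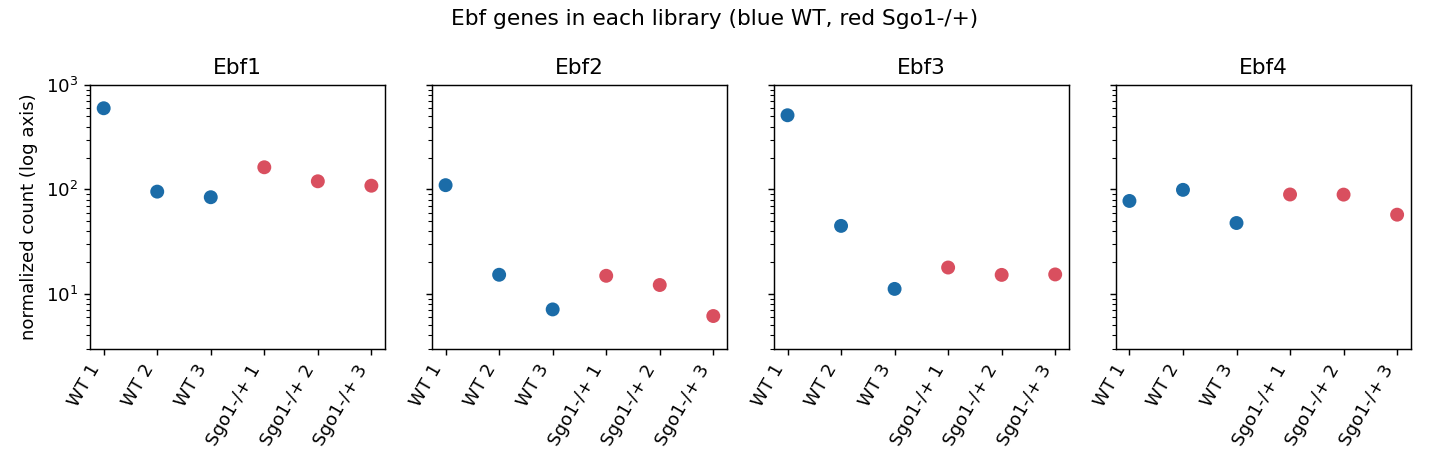
Normalized counts of Ebf1, Ebf2, Ebf3 and Ebf4 (log axis) in each of the 3 WT (blue) and 3 Sgo1-/+ (red) libraries, 1 point per library. WT replicate 1 stands above all other libraries for Ebf1 (598), Ebf2 (109.8) and Ebf3 (513), and lies among them for Ebf4 (77.5).

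Of the 3 paralogs of Ebf3, 2 were at least 2-fold higher in WT replicate 1 than in every other library. Among all genes tested this held for 273 of 16337, or 1.67%. No member was at least 2-fold above all the rest in a library other than WT replicate 1. The ratio of WT replicate 1 to the median of the other 5 libraries was 33.4 for Ebf3, 9.03 for Ebf2, 5.52 for Ebf1 and 0.870 for Ebf4. A ratio as high as that of Ebf3 was found for 12 of the 16337 genes, Ebf3 included. WT replicate 1 was 1 of 2 male libraries. In the other one, Sgo1-/+ replicate 2, Ebf1, Ebf2 and Ebf3 were each between the lowest and highest of the female libraries.

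Setting levels of different genes side by side needs a scale per length, so the normalized counts were divided by kilobases of exon. On that scale Ebf4 was the highest member in 5 of 6 libraries, with 14.7 to 30.6 normalized counts per kb, followed by Ebf1 with 8.63 to 16.7. In each of these libraries Ebf1 was at 0.319 to 0.628 of the Ebf4 level. Ebf3 with 1.21 to 4.85 and Ebf2 with 0.886 to 2.20 per kb were the lowest, and their ranges over libraries overlapped. In WT replicate 1 the order was another one, with 61.3 per kb for Ebf1, 55.6 for Ebf3, 24.0 for Ebf4 and 15.8 for Ebf2. Which exons of a gene were counted is not given in the sources used here, so the levels per kb depend on the annotation.

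As a share of the family's summed level per kb, Ebf4 made up 56.4 to 64.5% in the other 5 libraries and 15.3% in WT replicate 1. Ebf3 made up 3.81 to 10.2% in the other 5 libraries and 35.5% in WT replicate 1. The share of Ebf1 moved less, from 20.6 to 35.4% in the other libraries to 39.1% in WT replicate 1. The summed level was 157 per kb in WT replicate 1 and between 25.6 and 48.4 elsewhere. In WT replicate 2, where Ebf3 had its next highest value, the Ebf3 share was 10.2% and the Ebf1 share, 20.6%, was its lowest.

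**Figure D2:**
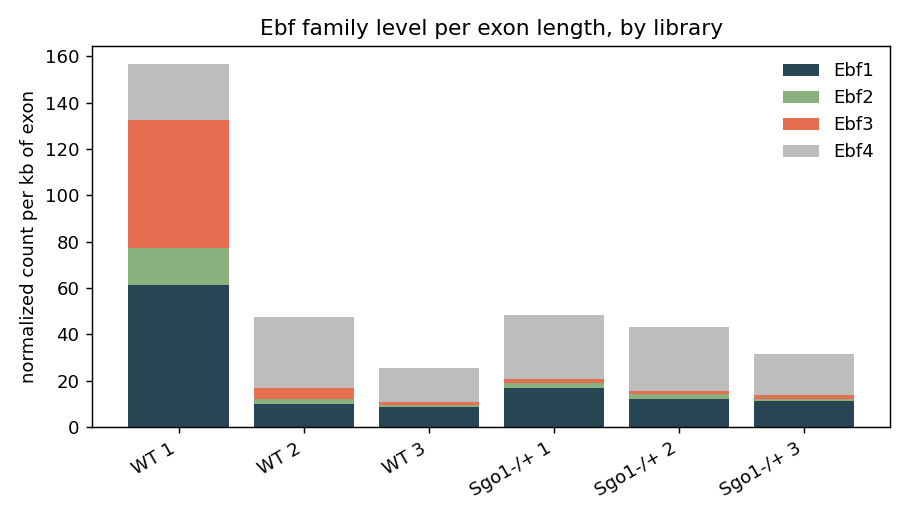
Normalized count per kilobase of exon for the 4 Ebf genes, stacked, in each library. The stack of WT replicate 1 reaches 157 and is mostly Ebf1 (61.3) and Ebf3 (55.6), while Ebf4 (gray) is the largest part in the other 5 libraries.

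The comparison of Sgo1-/+ with WT asked which genes differ between the 2 genotypes. It was fitted by edgeR's quasi-likelihood test over 16337 genes that passed the filter on low counts, all 4 members among them. With Benjamini-Hochberg adjustment over all these genes, edgeR called 0 genes at an adjusted p under 0.05 (0%), and DESeq2 called 3, named after their values were seen as Gm5900, AA465934 and Ablim3. At an unadjusted p under 0.05 edgeR gave 333 genes, of which the 201 lower in Sgo1-/+ are 1.23% of those tested. None of the 3 paralogs was among the 333.

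Ebf1 averaged 130.3 ± 28.8 normalized counts over the Sgo1-/+ libraries, against 259 ± 294 over the WT ones (SD, n = 3 each). This is a log2 fold change of −0.99 (SE 0.753) and an adjusted p of 0.9999 in edgeR's quasi-likelihood test. An exact two-sided permutation test over the 20 groupings of the libraries gave p = 1, where 0.1 is the smallest p possible. Without WT replicate 1 the sign turned, with a log2 fold change of 0.54 (SE 0.237), an unadjusted p of 0.0558 and an adjusted p of 0.9995 in edgeR. In that fit too, 0 of 16617 genes (0%) had an adjusted p under 0.05. The 3 Sgo1-/+ libraries then lay above both remaining WT libraries, an order that 8.72% of those genes shared. Permuting these 5 libraries exactly, two-sided, gave p = 0.2, the smallest that 2 against 3 libraries allow.

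Ebf2 averaged 11.1 ± 4.48 normalized counts over the Sgo1-/+ libraries, against 44.0 ± 57.1 over the WT ones (SD, n = 3 each), and its groups overlapped. The log2 fold change was −1.98 (SE 1.01; adjusted p = 0.9999 in edgeR's quasi-likelihood test), and the exact two-sided permutation p was 0.4. Without WT replicate 1 the WT mean was 11.2, almost that of Sgo1-/+, and the log2 fold change was −0.02 (SE 0.584).

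Ebf4 averaged 78.6 ± 18.5 normalized counts over the Sgo1-/+ libraries, against 74.7 ± 25.8 over the WT ones (SD, n = 3 each). The group means lay closer together than either SD. Its log2 fold change was 0.07 (SE 0.327, adjusted p = 0.9999 in edgeR's quasi-likelihood test), and the exact two-sided permutation p was 0.9. The direction was not stable, since the fold change was below 0 when WT replicate 3 (−0.17), Sgo1-/+ replicate 1 (−0.03) or Sgo1-/+ replicate 2 (−0.04) was left out.

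Ebf3, given with no test, averaged 16.1 ± 1.51 normalized counts over the Sgo1-/+ libraries, against 189 ± 280 over the WT ones (SD, n = 3 each). Its fitted log2 fold change was −3.54. Without WT replicate 1 it was −0.79, with WT replicate 2 above and WT replicate 3 below the 3 Sgo1-/+ libraries. Leaving out any other library gave between −4.10 and −3.51. For Ebf1 and Ebf2, the fold changes with another library left out were between −1.41 and −0.87 and between −2.48 and −1.69.

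**Figure D3:**
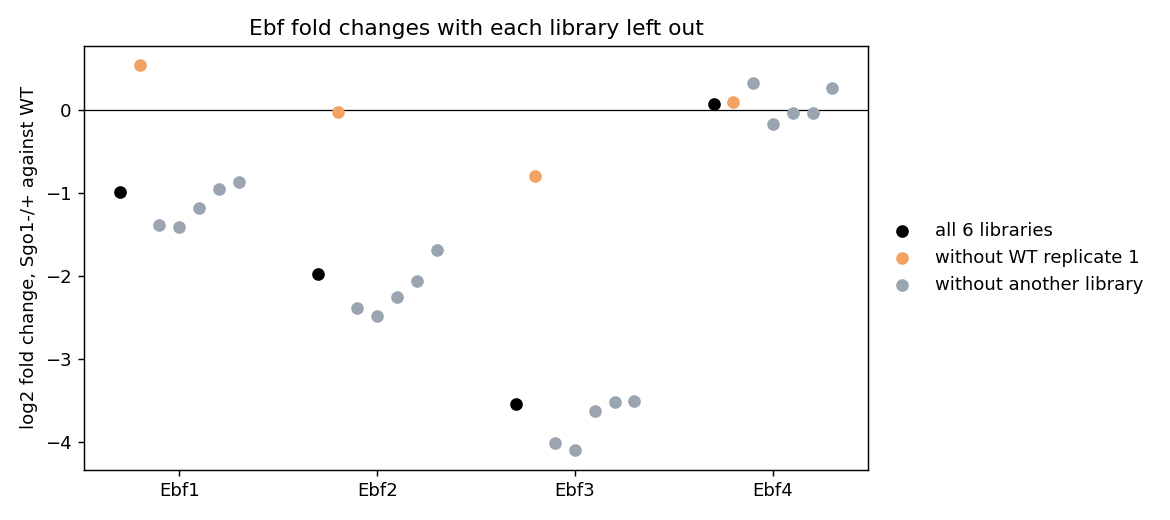
Log2 fold change of Sgo1-/+ against WT for each Ebf gene from edgeR, with all 6 libraries (black), without WT replicate 1 (orange) and without each other library (gray). The orange points of Ebf1 (0.54), Ebf2 (−0.02) and Ebf3 (−0.79) lie above all other points of the same gene, while those of Ebf4 lie around 0.

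Upstream sequences of 2 members that were high together, Ebf1 and Ebf3, are shown to let their starts be compared. They are the 250 bases before the RefSeq start (GRCm38.p6), 5′ to 3′. Capitals mark matches on either strand to CCCNNGGG, the core of the palindrome that early B-cell factors are known to bind.

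Ebf3 (chr7:137314446-137314695, minus strand): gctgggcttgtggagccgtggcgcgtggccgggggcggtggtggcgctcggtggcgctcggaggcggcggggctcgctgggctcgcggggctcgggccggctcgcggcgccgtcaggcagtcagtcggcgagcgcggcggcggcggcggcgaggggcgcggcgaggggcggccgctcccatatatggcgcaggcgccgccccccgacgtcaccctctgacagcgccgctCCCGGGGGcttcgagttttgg

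Ebf1 (chr11:44617850-44618099, plus strand): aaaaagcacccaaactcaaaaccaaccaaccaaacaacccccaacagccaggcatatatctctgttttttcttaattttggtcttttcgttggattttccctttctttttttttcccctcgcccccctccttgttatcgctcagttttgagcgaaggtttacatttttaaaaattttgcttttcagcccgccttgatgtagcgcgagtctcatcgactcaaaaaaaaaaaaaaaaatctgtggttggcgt

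The 2 printed windows are unlike in composition. The Ebf3 window is 80.0% G or C and holds 43 CpG dinucleotides, and the Ebf1 window is 40.0% G or C with 9 CpG. The window of a second RefSeq start of Ebf1 (chr11:44619978-44620227, plus strand) is 52.0% G or C with 14 CpG. The median over 32851 promoters of the same length is 52.4% G or C and 6 CpG. The Ebf4 window (chr2:130295689-130295938, plus strand) held 31 CpG and is 75.2% G or C. One match to CCCNNGGG was found in the Ebf3 window, and none in the Ebf1 window above, in that of its second start or in the Ebf4 window. Such a match is present in 11.8% of all promoters. The pattern is its own reverse complement, so that both strands give the same matches. Ebf2 was not matched in the promoter table.

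The proteins that bind early B-cell factors differed among themselves. Of the 8 partner genes of a fixed list, 7 were tested and 0 passed the adjusted threshold, with 0 at an unadjusted p under 0.05 in either direction. Their median log2 fold change was −0.20, against 0.00 over all genes tested. Zfp521 was the 1 partner gene of these 7 that was at least 2-fold higher in WT replicate 1 than in every other library. It had 788.5 normalized counts there. The other WT libraries were at 169.5 and 175.5, and the Sgo1-/+ libraries at 160, 197 and 160. Its log2 fold change was −1.13 (SE 0.606; adjusted p = 0.9999 in edgeR) and 0.00 without WT replicate 1, where all 5 libraries lay together. Zfp423 was also highest in WT replicate 1, with 379 normalized counts against 155 to 263 in the others. The E proteins Tcf3, Tcf4 and Tcf12, which act with EBF1 in early B cells, had normalized counts of 281, 2231 and 765 in WT replicate 1. For Tcf4 this was the lowest of the 6 libraries.

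Of 10 genes that EBF1 is known to turn on in B cells, 1 was tested, Foxo1, with a log2 fold change of 0.45 (SE 0.236; adjusted p = 0.9999 in edgeR). Foxo1, which is also broadly expressed, had its lowest value, 303 normalized counts, in WT replicate 1, where Ebf1 was highest. The B-cell receptor gene Cd79a had 14.1 normalized counts in WT replicate 1, 23.8 in Sgo1-/+ replicate 1 and 0.00 to 5.71 in the others. Pax5, a B-cell transcription factor that stands in both lists, had at most 3.97. Pou2af1, a B-cell coactivator, had 40.7 normalized counts in Sgo1-/+ replicate 1, which also held the highest Ebf1 value outside WT replicate 1, and at most 5.04 elsewhere.

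Marker genes of brain regions moved in WT replicate 1 with the high Ebf1, Ebf2 and Ebf3 levels. The 8 Purkinje cell genes summed to 34270 normalized counts in WT replicate 1 and to 11500 to 14730 in the other libraries. Itpr1, with 17720 there and 9523 to 12050 elsewhere, was the largest part of each of these sums. For the 10 genes of cerebellar granule cells the sums were 19640 and 1404 to 2594, and for 12 genes of the brain stem 4306 and 29.4 to 69.0. Pcp2, a Purkinje cell protein, had 1596 normalized counts there and 11.4 to 42.0 elsewhere, and Gabra6, the GABA receptor subunit of granule cells, had 2167 and 0.00 to 72.6. Among the tested genes of these lists, 6 of 7 Purkinje, 7 of 9 granule cell and 3 of 3 brain stem genes were at least 2-fold higher in WT replicate 1 than in every other library, against 1.67% of all genes tested. The 7 genes of the cerebral cortex ran the other way, with a sum of 3036 in WT replicate 1 and 12420 to 15390 elsewhere. Tbr1, a transcription factor of deep-layer cortical neurons, had 48.3 normalized counts there and 913 to 1359 elsewhere. The 5 hippocampus genes summed to 1275 there and to 2338 to 2887 elsewhere. Among them Wfs1, the most abundant, had 673 normalized counts there against 1085 to 2374, while Prox1, a factor of dentate granule neurons, had 496.5 there against 204 to 653. Pcp2 and Ppp1r17 of the Purkinje list and Slc6a5 of the brain stem list are genes that the study listed from these libraries. All lists were chosen with earlier results of these data known, so these counts are a description. Of the 12 brain stem genes only 3 passed the filter on low counts. The part of these regional markers in the Ebf values was not tested.

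In the other 5 libraries the brain stem and granule cell sums were low. WT replicate 2 had the highest Ebf3 value of these libraries, 44.8, with a brain stem sum of 33.3, against 69.0 in WT replicate 3, where Ebf3 was lowest at 11.2. The granule cell sum was 2454 in WT replicate 2, and among these libraries only Sgo1-/+ replicate 3 was higher, at 2594, where Ebf3 was 15.3. The granule cell genes Cbln1 (210.4 normalized counts), Zic1 (899.8), Zic2 (220.0) and Pax6 (380.9) had their highest values of these libraries in WT replicate 2. The other genes of that list did not. Gabra6 and Fat2 had 3.81 each there, against 72.6 and 98.2 in Sgo1-/+ replicate 3. The olfactory bulb sum was also highest in WT replicate 2, at 1807, but next highest in WT replicate 3, at 1426, where Ebf3 was lowest. These 5 libraries are too few for a relation to be tested.

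Markers of the cell types where Ebf1 is known in the forebrain were measured as well. The 14 mural cell genes, of which 0 were at least 2-fold higher in WT replicate 1, summed to 3180 normalized counts there and 2732 to 3329 elsewhere. Rgs5 and Pdgfrb, both pericyte genes, had 1100 and 204 normalized counts in WT replicate 1, against 761 to 1184 and 269 to 316.5 in the others. Tbx18, a mural cell transcription factor, had an unadjusted p of 0.00301 with a log2 fold change of −1.24 (SE 0.277), and an adjusted p of 0.9999 in edgeR's quasi-likelihood test. The 6 genes of striatonigral neurons summed to 1649 in WT replicate 1 and to 5928 to 13500 elsewhere, and Drd1, their dopamine receptor, had 20.1 normalized counts there against 530 to 1564. Meningeal fibroblast genes summed to 2546 in WT replicate 1 and 591 to 2390 elsewhere.

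The early-born Cajal-Retzius neurons also use Ebf genes in development. The 8 genes of that list were all tested, with a sum of 6559 normalized counts in WT replicate 1 and 2034 to 3881 elsewhere, and 3 were at least 2-fold higher in WT replicate 1, namely Lhx1, Lhx5 and Nhlh2, transcription factors that hindbrain neurons express as well. Lhx1 had 359 normalized counts there and 4.06 to 16.9 elsewhere. Reln, the secreted guidance protein that defines these cells in the cortex, had 1879 against 853 to 1495. Midbrain dopamine neuron genes had their highest sum in WT replicate 1, 1300 against 442 to 956, of which Aldh1a1 gave 961. Of the 4 tested genes, 0 were at least 2-fold higher there, and Foxa2 and Pitx3 were at 0 in every library. En1, not tested, had 36.25 normalized counts in WT replicate 1 and 3.07 to 5.07 elsewhere. Slc6a3 was lowest in WT replicate 1, with 2.01 against 3.04 to 47.1, and Th had 109 against 35.8 to 280. Of the 5 olfactory bulb genes tested, 0 were at least 2-fold higher in WT replicate 1. Their median log2 ratio of that library to the median of the others was −2.57. The sum of the list there was 301, within the 108.5 to 1807 of the other libraries. Uncx, not tested, gave 129 of this sum and had at most 9.21 elsewhere.

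In the comparison of Sgo1-/+ with WT, 0 genes of any list passed the adjusted threshold in edgeR. At an unadjusted p under 0.05, the genes lower in Sgo1-/+ were 2 of 9 tested in the granule cell list, 2 of 3 in the brain stem list, 1 of 14 in the mural list, 1 of 10 in the meningeal list and 1 of 8 in the Cajal-Retzius list, and 0 were higher. Over all genes tested, 201 of 16337 (1.23%) were lower and 132 higher, so that 1 gene of such a list is no result about the list. The last 2 are Slc22a6, a transporter of the meninges, with a log2 fold change of −1.11 (SE 0.304), and Calb2, the calcium-binding protein calretinin, with −1.60 (SE 0.519). Slc6a5, 1 of the 2 brain stem genes, is among the genes that the study listed as lower in Sgo1-/+ from these same libraries. So are Pcp2 and Ppp1r17 of the Purkinje list. The counts and medians of these 2 lists are therefore a description only. The median log2 fold changes were −3.90 for brain stem, −2.05 for granule cells, −1.62 for Purkinje cells and −0.94 for Cajal-Retzius cells. Without WT replicate 1 these became −0.07, −0.06, 0.02 and −0.01, against 0.01 over all genes tested. The medians of mural cells (0.04 and 0.01 without WT replicate 1), meningeal fibroblasts (−0.63 and −0.64) and midbrain dopamine neurons (−0.15 and −0.14) moved little. Those of striatonigral neurons (0.70 and 0.23), cerebral cortex (0.51 and −0.05) and hippocampus (0.66 and 0.48) moved more. The olfactory bulb median moved away from 0, from −1.66 to −2.19. Without WT replicate 1 all 5 tested bulb genes were lower in Sgo1-/+, at unadjusted p of 0.0115 to 0.0309 (adjusted p 0.9995, edgeR). Over all genes of that fit, 317 of 16617 were lower at an unadjusted p under 0.05. Cdhr1, the most abundant, had 890 and 768 normalized counts in WT replicates 2 and 3, and 432, 122 and 29.7 in Sgo1-/+. The cause was not tested.

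**Figure D4:**
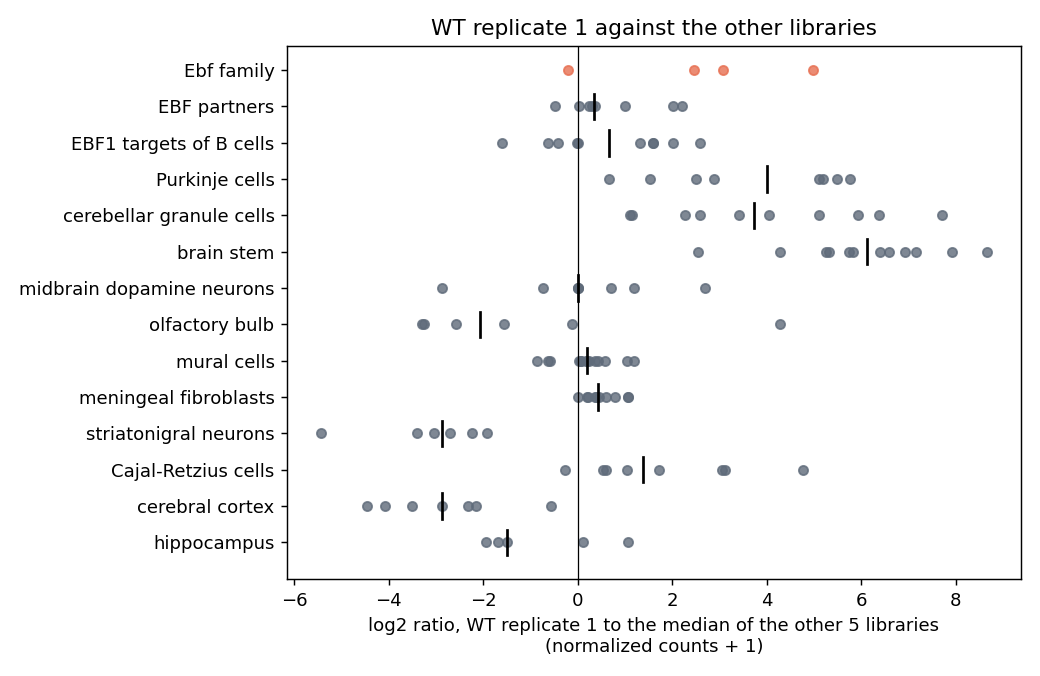
Log2 ratio of WT replicate 1 to the median of the other 5 libraries (normalized counts + 1), 1 point per gene, for the 4 Ebf genes (orange) and for each fixed list, with a bar at the median of a list. Ebf1, Ebf2 and Ebf3 lie to the right, up to 4.97, as do the genes of the brain stem (median 6.11) and of cerebellar cells, while cortex genes lie to the left (median −2.86) and mural cell genes near 0 (0.19).

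The genes most like each member were those with the smallest distance between profiles of log2 (normalized count + 1) over the 6 libraries, centred on each gene's mean, among 16309 other genes with a mean of at least 10 normalized counts. For Ebf3 they were the noncoding RNA AC137678.2 (distance 0.865), Hoxb4, the noncoding RNA A230087F16Rik, Cbln1 and Glra1. Hoxb4, a patterning gene of the hindbrain and spinal cord, had 65.5 normalized counts in WT replicate 1 and at most 2.86 in the others. Glra1, a glycine receptor subunit that also stands in the brain stem list, had 525 against 7.95 to 16.4. Cbln1, the cerebellin that granule cells release onto Purkinje cells, had 2543 against 149 to 210.4.

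Cbln1 was also the fifth nearest gene of Ebf2, after Gm20554 (distance 0.673), Sncg, Serpinb1b and Fibin. Among the members, Ebf2 was the nearest to Ebf3, at rank 14 of 16309 (distance 1.73), and Ebf1 came at rank 89 and Ebf4 at rank 4782. Seen from Ebf1, Ebf2 was at rank 157 and Ebf3 at rank 12049, since the distance counts the size of the change as well as its shape. Nearest to Ebf1 were the chromatin remodeller Chd7 (distance 0.556), the transporter Slc22a4, the basement membrane collagen Col18a1, the protease inhibitor Timp4 and Chn2. Chd7 had 1280 normalized counts in WT replicate 1, against 228 and 266 in the remaining WT libraries and 260.4 to 328 with Sgo1-/+.

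For Ebf4 the nearest genes were Gm15676 (distance 0.206), Zfp92, Gm11762, Klf2 and Sinhcaf, none of them high in WT replicate 1. Klf2, a flow-responsive factor of endothelial cells, had 77.5, 119 and 53.8 normalized counts in WT and 113.3, 113.5 and 59.3 in Sgo1-/+. Like Ebf4, it was lowest in WT replicate 3 and in Sgo1-/+ replicate 3. These profiles share the same 6 libraries, and for the other 3 members they rest mainly on WT replicate 1: without it, none of the 5 nearest genes of Ebf1, Ebf2 or Ebf3 was again among the 5 nearest, and 2 of 5 were for Ebf4.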

How the data were processed

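Brain RNA of 3 WT and 3 Sgo1-/+ mice was sequenced as paired reads. The authors aligned them to mouse mm10 with Strand NGS software and deposited estimated counts per Ensembl gene, not normalized. Submitters' processing notes also name BWA and edgeR. The strand setting is not given in the sources used here. The deposited table further holds 6 columns of the authors' normalized values and columns of their own fold changes, not used here. Columns Br1 to Br3 were taken as WT and Br4 to Br6 as Sgo1-/+ replicates 1 to 3, which the column names do not state in full. Xist and Ddx3y levels matched the labelled sexes.

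Counts were rounded, TMM-normalized and fitted with edgeR 4.0.16 (quasi-likelihood, default filter, no covariates) after a test on simulated data. Alternatives used DESeq2 1.42.0 and limma 3.58.1. GENCODE M21 (same build) gave exons, RefSeq the promoters. Named genes were the members, overlapping genes, Sgo1, genes of the 13 fixed lists, and the 5 nearest genes of each member. From a list, the rule took those with the highest mean and the 2 with the largest fold change, and not all of these are named. Tbr1, Cd79a, Prox1, Zic2, Pax6, Tcf3, Zfp423, Lhx5, Nhlh2, Pdgfrb, Pax5, Pou2af1, Foxa2, Pitx3, En1 and Uncx were picked from the lists after their values were seen. Members and lists were chosen with earlier results of these data known.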

Additional observations from a re-analysis of the deposited data

How the results depend on the processing

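Over the 6 fits that each omit 1 library, the Sgo1-/+ against WT log2 fold change ranged from −1.41 to 0.54 for Ebf1, from −2.48 to −0.02 for Ebf2, from −4.10 to −0.79 for Ebf3 and from −0.17 to 0.33 for Ebf4. For Ebf1 it turned to 0.54 only without WT replicate 1, and Ebf3 moved to −0.79 in that fit. Ebf4 turned to −0.17, −0.03 and −0.04 when WT replicate 3, Sgo1-/+ replicate 1 and Sgo1-/+ replicate 2 were omitted. Genes called at an adjusted p under 0.05 numbered 0 to 1 in these fits, the 1 (Gm13841) without Sgo1-/+ replicate 2, and 3 with DESeq2. At an unadjusted p under 0.05 edgeR gave 333 genes with all libraries, 626 without WT replicate 1, 1040 without WT replicate 3 and 563 with no filter. The cause was not tested. With the replicate number as a block the fold changes were −0.41 for Ebf1, −1.30 for Ebf2, −2.19 for Ebf3 and 0.10 for Ebf4, with 0 genes called. The labels do not say whether the numbers pair the animals. Same-numbered libraries had correlations of −0.145, 0.01 and −0.21 between their deviations from the group means, which cannot settle this with so few libraries. With sex as a covariate the fold changes were −0.36, −1.25, −2.27 and 0.07 in the same order. With limma, run on log2 values, they were −0.40, −1.10, −1.95 and 0.10. Over the alternatives the adjusted p from edgeR, DESeq2 or limma was 0.764 to 1 for Ebf1 and Ebf2 and 0.909 to 1 for Ebf4. Requiring 10 counts per library removed Ebf2. Of the list medians, those of Purkinje cells (−1.62) and cerebral cortex (0.51) turned to 0.02 and −0.05 without WT replicate 1, an alternative chosen after seeing the data. With a pseudocount of 5 in place of 1, 2 of the 5 nearest genes remained for Ebf2 and 3 of 5 for each other member.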
